A study of Mus musculus with 4 samples.

Results

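The mouse miRNAs mmu-miR-375-3p, mmu-miR-7a-5p, mmu-miR-7b-5p and mmu-miR-802-5p, written without the species prefix from here on, are 4 of the 668 miRNAs listed for exosomes of the small intestinal (SI) epithelium or of serum. They were picked by name for their known roles in endocrine, Paneth or pancreatic islet cells. All 4 are listed among the 373 miRNAs of SI epithelial exosomes (SI-Exos), and 3 are listed among the 611 miRNAs of serum exosomes, where miR-7b-5p has no entry. The material came from male mice of the strain C57BL/6J on standard chow, aged 3 months or 18 months, with no genetic change or agent named for any group. SI-Exos came from epithelium released from everted intestine with a chelation buffer, and both kinds of exosome were collected by ultracentrifugation. Each of the 4 groups (3m-SI-Exos, 18m-SI-Exos, 3m-serum-exos and 18m-serum-exos) was 1 small RNA library. How many mice each library came from is not stated, so no difference between ages has a replicate check.

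miR-375 is known as an islet miRNA that restrains insulin secretion, and it is also found in hormone-secreting and mucus-secreting cells of the gut. miR-7 is abundant in endocrine and neural cells and is known to restrain the growth and secretory output of islet beta cells. miR-802 is expressed in intestine, liver and pancreas, and has been linked to insulin resistance and to the maturation of Paneth cells and enterocytes. A miRNA pairs with target mRNAs mainly through its seed, bases 2 to 8 from the 5′ end, and each hairpin precursor can yield a 5p and a 3p arm.

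The mature sequences are shown because the seed decides which of these miRNAs could share targets and because miR-7a-5p and miR-7b-5p differ by few bases. The letters are those of the deposited tables, written 5′ to 3′ with the seed in capitals.
miR-375-3p: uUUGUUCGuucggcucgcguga
miR-7a-5p: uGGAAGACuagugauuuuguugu
miR-7b-5p: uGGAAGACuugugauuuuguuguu
miR-802-5p: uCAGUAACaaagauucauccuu
miR-7a-5p and miR-7b-5p had the same seed, GGAAGAC. Over the 23 bases compared they differed by A10U alone (miR-7a-5p base first, positions counted from the 5′ end), and miR-7b-5p has a further U at its 3′ end. A read of the full miRNA covers the differing base, but how reads were divided between them was not tested and remains uncertain. No other miRNA with a sequence in either table (370 in SI-Exos, 606 in serum exosomes) had any of these seeds. The GC content was 54.5% for miR-375-3p and lower for the others, at 34.8% for miR-7a-5p, 33.3% for miR-7b-5p and 31.8% for miR-802-5p, beside a median of 47.8% over the SI-Exos table.

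The partner arms are shown because the results below compare them with the members. The sequences of miR-375-5p and miR-7b-3p, which neither table lists, are those of RefSeq.
miR-375-5p: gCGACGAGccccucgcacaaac
miR-7a-1-3p: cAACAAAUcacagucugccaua
miR-7a-2-3p: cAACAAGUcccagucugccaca
miR-7b-3p: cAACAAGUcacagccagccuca
miR-802-3p: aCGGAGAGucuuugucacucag
RefSeq holds the mature sequences of miR-7a-5p, miR-7b-5p and miR-802-5p in the same letters, and has no entry for miR-375-3p. On GRCm38, the build named by the submitters, the hairpin gene Mir375 lies on the minus strand of chromosome 1 from 74900658 to 74900721. miR-7a-5p comes from 2 hairpin genes, Mir7-1 on the minus strand of chromosome 13 from 58392779 to 58392886 and Mir7-2 on the plus strand of chromosome 7 from 78888277 to 78888373. Mir7b lies on the plus strand of chromosome 17 from 56242988 to 56243098 and Mir802 on the plus strand of chromosome 16 from 93369720 to 93369816. Mir7-1 lies in an intron of Hnrnpk on the same strand, in all 12 transcripts that span it, and the other 4 hairpins overlap no other annotated gene.

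Read counts were divided by the sum of the miRNA reads of a library and multiplied by 1000000, and are given as CPM. The libraries held 212215 (3m-SI-Exos), 71353 (18m-SI-Exos), 832002 (3m-serum-exos) and 778237 (18m-serum-exos) miRNA reads, so that 3 reads stood for 14.1, 42.0, 3.61 and 3.86 CPM. Intervals are exact 95% binomial intervals (Clopper-Pearson) and cover counting error only. A miRNA counted as measured where either age of a source had 10 reads or more, and as higher or lower at 3 months when the ratio of CPM was at least 2-fold, or 1 age had 0 reads, and its interval left out 1. A count of 0 was set to 3 reads for bounds, which is 42.0 CPM in 18m-SI-Exos. The 2 tables were made separately, so levels of SI-Exos and serum exosomes stand side by side here and were not tested against each other.

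In 3m-SI-Exos the 4 miRNAs together took 2.52% of the miRNA reads (2.46 to 2.59%), and in 18m-SI-Exos they took 0.719% (0.658 to 0.784%). In serum exosomes they took 0.121% at 3 months (0.114 to 0.129%) and 0.142% at 18 months (0.134 to 0.151%). Their summed share was thus higher at 3 months in SI-Exos, by 3.51-fold (3.21 to 3.85). In serum exosomes the ratio of 3 months to 18 months was 0.852 (0.781 to 0.928) but 1.03 with totals that omit each library's top 5 miRNAs, so its direction depends on the total. In every library miR-7a-5p was the most abundant of them, followed by miR-375-3p, and the intervals of these neighbours did not overlap. Among the detected miRNAs, miR-7a-5p held position 13 of 326 in 3m-SI-Exos, 33 of 258 in 18m-SI-Exos, 44 of 486 in 3m-serum-exos and 52 of 496 in 18m-serum-exos. The positions of miR-375-3p were 22, 38, 77 and 58 in the same order. In each source miR-7a-5p therefore stood closer to the top at 3 months, while miR-375-3p did so at 3 months in SI-Exos and at 18 months in serum exosomes.

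**Figure D1:**
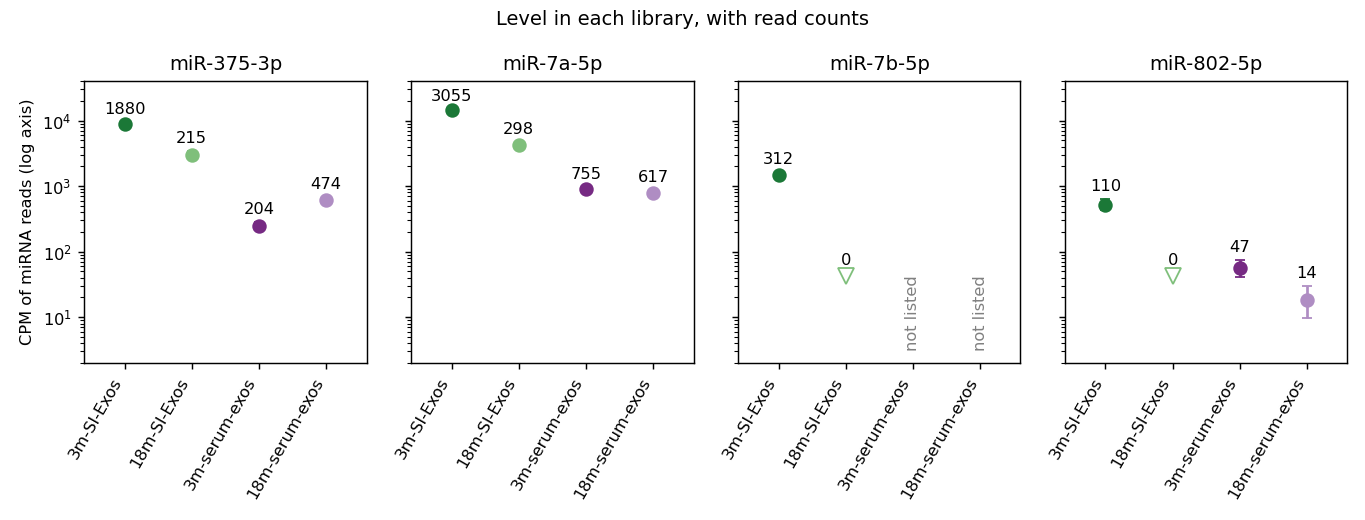
CPM of miRNA reads (vertical, log axis) of each miRNA in the 4 libraries, with the read count above each point and exact 95% intervals as bars; open triangles mark 0 reads, drawn at 3 reads (42.0 CPM). miR-7b-5p and miR-802-5p had 312 and 110 reads in 3m-SI-Exos and 0 in 18m-SI-Exos, and miR-375-3p was lowest in 3m-serum-exos.

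**Figure D2:**
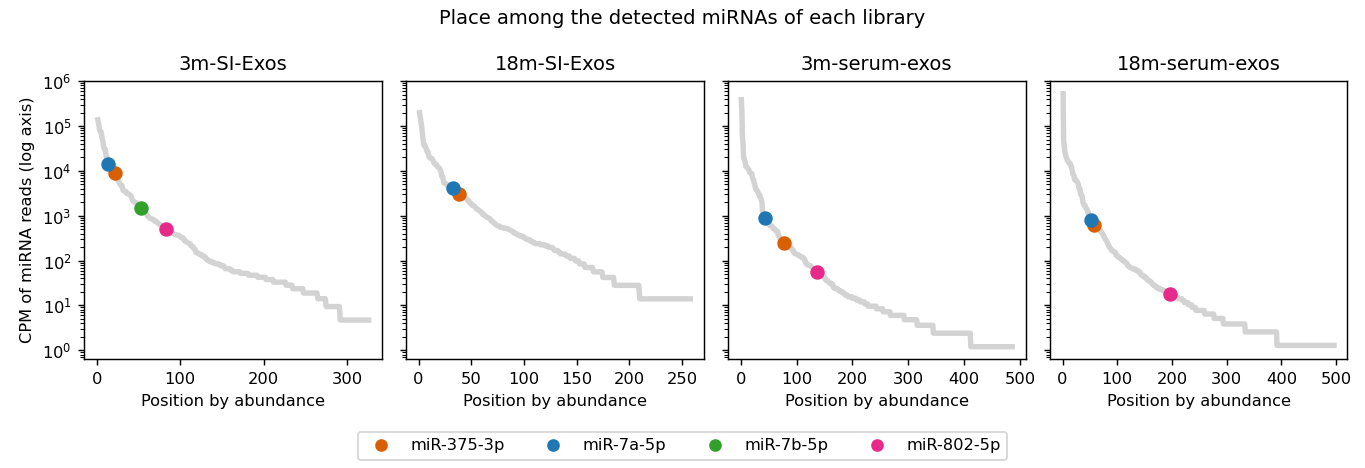
CPM (vertical, log axis) of every detected miRNA of a library against its position by abundance (horizontal, grey line), with the 4 miRNAs as coloured points and 1 library per panel. miR-7a-5p and miR-375-3p lie near the upper end in 3m-SI-Exos (positions 13 and 22) and farther down in 3m-serum-exos (44 and 77).

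The first comparison asks which of these miRNAs differed between SI-Exos of young and aged mice. All 4 were higher at 3 months than at 18 months, by about 3-fold for miR-375-3p and miR-7a-5p and by far more for miR-7b-5p and miR-802-5p, which had 0 reads at 18 months. Of the 214 miRNAs measured in SI-Exos, 32.7% were called higher and 29.4% lower at 3 months. The split of all calls, 70 higher and 63 lower, depended on the scaling and became 100 and 50 with DESeq2 size factors and 131 and 31 with the authors' RPM. The study's own list of miRNAs that decrease with age in SI-Exos, drawn from libraries that include these ages, holds all of the members together with miR-7a-1-3p and miR-802-3p, so their direction is not independent evidence. CPM are shares of the miRNA reads, so a fall in absolute amount is not shown. The rest of the library also differed, as miR-30e-3p was at 13736 CPM in 3m-SI-Exos and 198100 CPM in 18m-SI-Exos. Fewer exosomes from a cell type, fewer copies per exosome and higher shares of other miRNAs cannot be told apart in such libraries.

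miR-375-3p had 1880 reads, or 8859 CPM (8465 to 9267), in 3m-SI-Exos and 215 reads, or 3013 CPM (2624 to 3443), in 18m-SI-Exos. Its ratio of 3 months to 18 months was 2.94 (2.55 to 3.40). miR-7a-5p had 3055 reads, or 14396 CPM (13893 to 14912), at 3 months and 298 reads, or 4176 CPM (3716 to 4677), at 18 months. Its ratio was 3.45 (3.06 to 3.90), and 3.80 when the reads of miR-7b-5p were added to it. The proportion between both miRNAs did not differ beyond counting error. There were 61.5 reads of miR-375-3p for every 100 of miR-7a-5p at 3 months and 72.2 at 18 months, a quotient of 0.853 with an interval that includes 1 (0.707 to 1.03). Among the 214 measured miRNAs, ordered from the highest ratio to the lowest, miR-7a-5p stood at place 34 and miR-375-3p at place 42.

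miR-7b-5p had 312 reads, or 1470 CPM (1312 to 1643), in 3m-SI-Exos and 0 in 18m-SI-Exos. Set against 3 reads, its 3-month level was 35.0-fold higher, with an exact lower limit of 28.3. miR-802-5p had 110 reads, or 518 CPM (426 to 625), and 0 reads, 12.3-fold higher when set against 3 reads, with an exact lower limit of 9.86. At the total of the 18-month library, the 3-month levels would correspond to 105 reads of miR-7b-5p and 37.0 reads of miR-802-5p. Of the 87 miRNAs with at least 100 reads in 3m-SI-Exos, 4 (4.60%) had 0 reads in 18m-SI-Exos, namely these and the epithelial miR-200b-3p and miR-203-3p. miR-7b-5p took 9.27% of the reads of miR-7a-5p and miR-7b-5p at 3 months (8.31 to 10.3%) and 0 of 298 reads at 18 months, with an exact upper limit of 1.23% (1.01% for 3 reads). As the reads were divided in the deposited table, the 2 miRNAs with the seed GGAAGAC did not fall in proportion. How the reads were assigned between them was not tested.

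By the authors' RPM, which divide by a larger library total, each SI-Exos ratio was 2.78 times larger, reaching 8.16 for miR-375-3p and 9.57 for miR-7a-5p, and the bounds were 97.1 for miR-7b-5p and 34.2 for miR-802-5p. Relative to the median of all 214 measured miRNAs, which no scaling alters, the log2 ratio was 1.25 higher for miR-375-3p, 1.48 higher for miR-7a-5p, and at their bounds 4.83 higher for miR-7b-5p and 3.32 higher for miR-802-5p. The median log2 ratio of the 4 was 2.71 at these bounds, or 4.00 with 0.5 counts added to each library, beside 0.30 and 0.45 for all measured miRNAs.

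**Figure D3:**
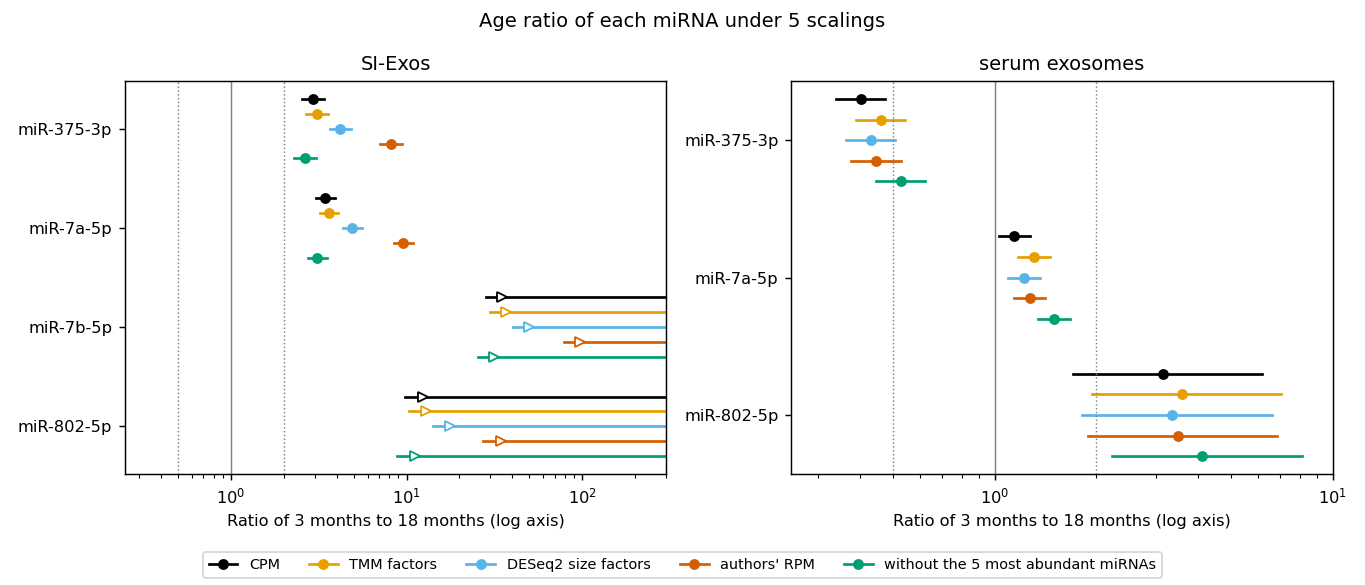
Ratio of 3 months to 18 months (horizontal, log axis) of each miRNA in SI-Exos and serum exosomes under 5 scalings (colours), with exact 95% intervals as lines, 1 library per age, and dotted lines at 0.5 and 2. Open triangles are bounds against 3 reads. In SI-Exos all points lie right of 2, whereas in serum exosomes miR-375-3p lies left of 1 (0.403 by CPM), miR-7a-5p between 1 and 2, and miR-802-5p right of 2.

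The second comparison asks the same of serum exosomes, which hold the vesicles of many tissues and blood cells. The 3 miRNAs listed there did not move together. miR-802-5p was higher at 3 months, miR-375-3p was lower and miR-7a-5p was not called. Of 251 measured miRNAs, 18.3% were called higher and 25.9% lower at 3 months. These 46 higher and 65 lower calls became 67 and 38 once the 5 most abundant miRNAs were kept out of the totals.

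miR-375-3p had 204 reads, or 245 CPM (213 to 281), in 3m-serum-exos and 474 reads, or 609 CPM (556 to 666), in 18m-serum-exos. Its ratio of 3 months to 18 months was 0.403 (0.340 to 0.475), and it stood at place 199 of the 251 ratios. With totals without the 5 miRNAs of highest mean share over both ages, the ratio was 0.528 and the call was lost. With each library's own top 5 left out instead, its levels were 869 and 1793 CPM, more than 2-fold apart. The lost call thus depends on which miRNAs are left out. miR-7a-5p had 755 reads, or 907 CPM (844 to 975), at 3 months and 617 reads, or 793 CPM (732 to 858), at 18 months. The intervals of the levels overlapped, and the ratio of 1.14 (1.03 to 1.28), whose own interval left out 1, was under the 2-fold limit. Relative to the median of all measured miRNAs, the log2 ratio of miR-375-3p was -0.93 and that of miR-7a-5p 0.58. For every 100 reads of miR-7a-5p there were 27.0 of miR-375-3p at 3 months and 76.8 at 18 months, so the quotient of the 2 ages was 0.352 (0.288 to 0.430). The proportion between these miRNAs thus differed beyond counting error in serum exosomes, while in SI-Exos it did not. The 3m-serum-exos library stood apart, since miR-375-3p took 21.3% (18.7 to 24.0%) of the reads of this pair there, and 38.1%, 41.9% and 43.4% in 3m-SI-Exos, 18m-SI-Exos and 18m-serum-exos.

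miR-802-5p had 47 reads, or 56.5 CPM (41.5 to 75.1), in 3m-serum-exos and 14 reads, or 18.0 CPM (9.84 to 30.2), in 18m-serum-exos. The ratio was 3.14 (1.70 to 6.18), at place 31 of 251, and this was the only member called higher at 3 months in both SI-Exos and serum exosomes. Its counts lay under a minimum of 50 reads, at which it was not tested. For every 100 reads of miR-7a-5p there were 6.23 of miR-802-5p at 3 months and 2.27 at 18 months, a quotient of 2.74 (1.47 to 5.45).

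Across the 4 libraries, miR-375-3p was ordered 3m-SI-Exos, 18m-SI-Exos, 18m-serum-exos and 3m-serum-exos from the highest level to the lowest, with no overlap of the intervals. miR-7a-5p had the same order apart from the serum libraries, whose intervals overlapped. For miR-802-5p, 3m-SI-Exos was highest and 3m-serum-exos was above 18m-serum-exos, while the 0 reads of 18m-SI-Exos, whose exact upper limit is 51.7 CPM, set no place below 18m-serum-exos. The order of the 2 sources depends on the total, since by the authors' RPM both miR-375-3p (12.4) and miR-7a-5p (17.2) were lowest in 18m-SI-Exos.

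**Figure D4:**
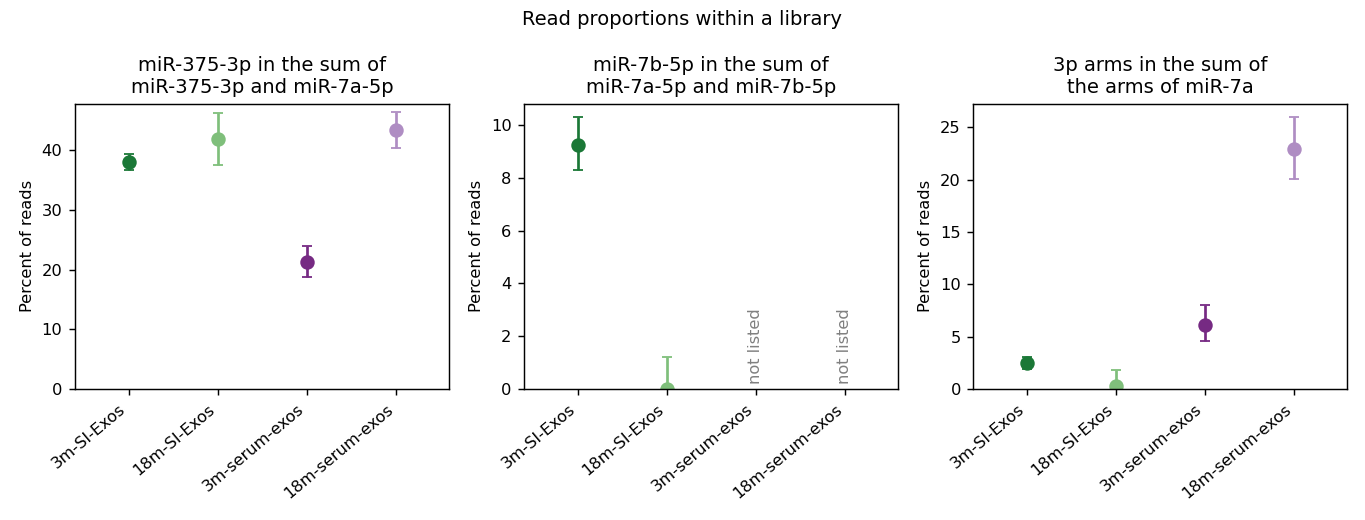
Percent of reads (vertical) in each library of miR-375-3p in the sum of miR-375-3p and miR-7a-5p, of miR-7b-5p in the sum of miR-7a-5p and miR-7b-5p, and of the 3p arms in the reads of both arms of miR-7a, with exact 95% intervals as bars. 3m-serum-exos is lowest in the first panel (21.3%), and the third panel spans 0.334% in 18m-SI-Exos to 22.9% in 18m-serum-exos.

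Only the partner arms of miR-7a and miR-802 were listed, and none had more reads than the member of its own hairpin. In 18m-serum-exos, however, miR-7a-1-3p (225 CPM) lay above the member miR-802-5p (18.0 CPM). The levels of these miRNAs were close in 3m-serum-exos (58.9 and 56.5 CPM). In 3m-SI-Exos the 3p arms of miR-7a took 77 of 3132 reads of both arms, 2.46% (1.95 to 3.06%), and 72 of these 77 were miR-7a-1-3p of Mir7-1, whereas miR-7a-2-3p of Mir7-2 had 5 reads. In 18m-SI-Exos the 3p arms had 1 of 299 reads, 0.334% (0.00847 to 1.85%). In serum exosomes their share was 6.10% at 3 months (4.54 to 7.98%) and 22.9% at 18 months (20.0 to 26.0%). The arm balance of miR-7a thus differed between libraries by more than counting error, with the largest 3p share in 18m-serum-exos. miR-7a-1-3p took at least 93.5% of the 3p reads in each library with at least 10 of them.

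The level of miR-7a-1-3p moved in opposite directions in the 2 sources. It had 72 reads (339 CPM) in 3m-SI-Exos and 1 read in 18m-SI-Exos, a ratio of 24.2 with a wide interval (4.21 to 969). In serum exosomes it had 49 reads (58.9 CPM) at 3 months and 175 reads (225 CPM) at 18 months, a ratio of 0.262 (0.187 to 0.361). In serum exosomes its reads per 100 of miR-7a-5p were 6.49 at 3 months and 28.4 at 18 months, a quotient of 0.229 (0.160 to 0.322). In SI-Exos they were 2.36 and 0.336, a quotient of 7.02 (1.21 to 282) that rests on 1 read at 18 months. The arms of this miRNA thus did not move together in serum exosomes, and in SI-Exos the quotient went the other way. miR-802-3p had 12 of the 122 reads of its hairpin in 3m-SI-Exos, 9.84% (5.19 to 16.5%), 5 of 52 in 3m-serum-exos, 9.62% (3.20 to 21.0%), and 1 of 15 in 18m-serum-exos, 6.67% (0.169 to 31.9%). These shares did not differ beyond their intervals. With 12 and 0 reads in SI-Exos, the age ratio of miR-802-3p had a lower limit of 0.934 and was not called. It was called higher at 3 months with DESeq2 size factors (lower limit 1.34) and the authors' RPM (lower limit 2.59).

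The other miRNAs of endocrine and neural cells in a comparison list were scarce in SI-Exos. The list of 11 includes miR-124-3p and miR-9-5p of neurons and miR-184-3p and miR-153-3p of islets and brain. Of the 11, 8 were listed in SI-Exos, and none reached 10 reads, the highest being 7 reads of miR-124-3p. The list leaves out miR-153-5p, the partner arm of miR-153-3p. It was at 210 CPM in 18m-SI-Exos, had no reads in 3m-SI-Exos and was called lower at 3 months. Also left out is miR-9b-3p, at 188.5 CPM in 3m-SI-Exos and 56.1 CPM in 18m-SI-Exos and called higher at 3 months. The scarcity thus holds for the listed names alone. In serum exosomes all 11 were listed and 4 were measured, of which miR-128-3p, abundant in brain, had levels of 603 and 708 CPM (3 and 18 months), above those of miR-375-3p (245 and 609 CPM). miR-153-3p, with 12 and 2 reads, was called higher at 3 months, miR-138-5p was called lower, and miR-128-3p (ratio 0.852, 0.754 to 0.963) and miR-129-5p were not called. The acinar miR-216a-5p, miR-216b-5p and miR-217-5p of the exocrine pancreas were listed in neither source. The libraries hold purified exosomes and no cells, so the cell types that released the 4 miRNAs cannot be read from them.

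miRNAs of the epithelium at large were plentiful in SI-Exos, and some of them were called in the direction of the members. Of 8 in the list, which holds miR-192-5p, miR-194-5p and miR-215-5p of enterocytes and the miR-200 family, the calls were 5 higher at 3 months, 0 lower and 3 neither. Those not called were miR-194-5p (ratio 1.62), miR-215-5p (0.921) and miR-141-3p (0.806). The median log2 ratio of the 8 was 2.13, with a summed level of 267248 CPM at 3 months and 82603 CPM at 18 months. The list leaves out their partner arms, which were mixed where measured. Called lower at 3 months were miR-194-1-3p (log2 ratio -3.50), miR-141-5p (-3.09) and miR-215-3p (-2.92). miR-200a-5p (1.26) and miR-200b-5p (0.75 at its bound) were called higher, and miR-192-3p and miR-200c-5p were not called. Levels of miR-194-1-3p were 12558 CPM in 3m-SI-Exos and 141900 CPM in 18m-SI-Exos, beside 13006 and 98706 CPM for miR-215-3p. The summed level thus depends on which arms are listed. miR-451a and miR-486a-5p of red blood cells and the myeloid miR-223-3p went opposite to the members, with 3 of 3 measured lower at 3 months. The summed level of the 4 blood miRNAs was 6324 CPM at 3 months and 37966 CPM at 18 months. The liver miRNA miR-122-5p was at 245 and 350 CPM (ratio 0.699, 0.426 to 1.18). The part of epithelial and blood content in the age ratios of the 4 miRNAs was not tested.

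In serum exosomes, 3 of the 4 blood miRNAs measured were lower at 3 months, and their summed level was 220222 CPM at 3 months and 541204 CPM at 18 months. miR-451a alone was at 215611 and 525476 CPM, a ratio of 0.410 (0.408 to 0.413), beside 0.403 for miR-375-3p. miR-122-5p was at 384405 and 26509 CPM (14.5-fold higher at 3 months, 14.3 to 14.7). Of the 8 epithelial miRNAs 1, miR-192-5p, was higher at 3 months, and miR-215-5p, miR-200b-3p and miR-429-3p were lower, the last with a ratio of 0.349 (0.315 to 0.387). The part of these contents in the ratio of miR-375-3p was not tested.

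**Figure D5:**
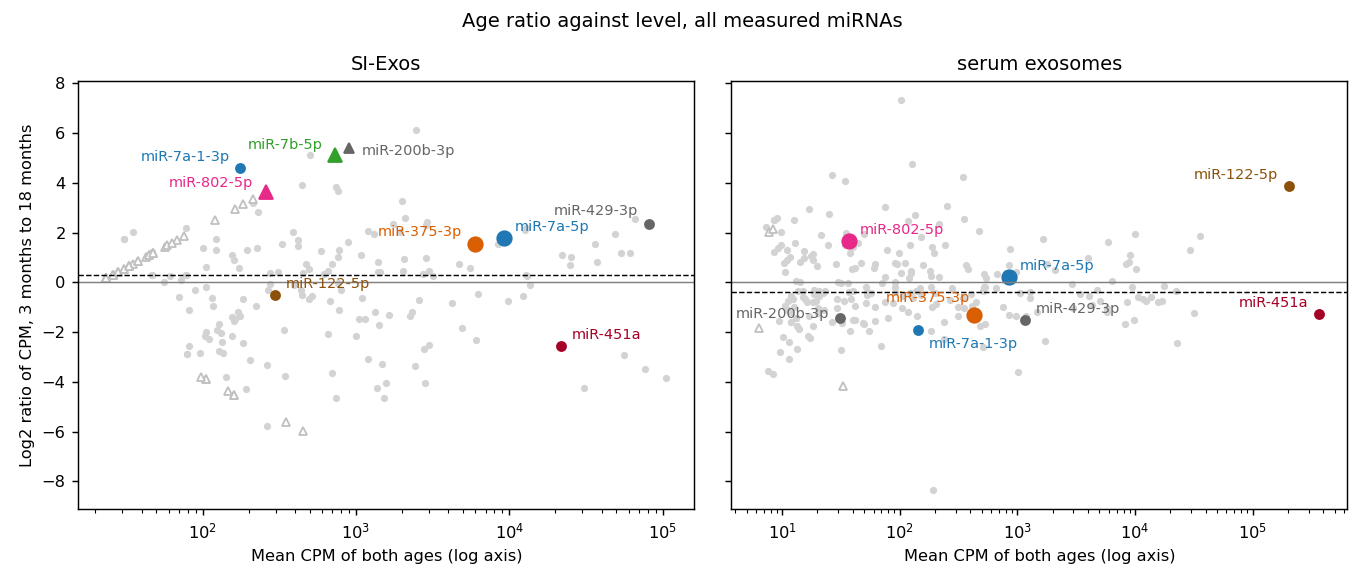
Log2 ratio of CPM, 3 months to 18 months (vertical), against mean CPM of both ages (horizontal, log axis) of the 214 and 251 measured miRNAs of SI-Exos and serum exosomes, with triangles for miRNAs with 0 reads at 1 age drawn at their bound and dashed lines at the medians (0.30 and -0.39). miR-375-3p lies above the median in SI-Exos, with miR-7a-5p and miR-429-3p, and below it in serum exosomes, where miR-429-3p and miR-451a are also below.

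Among 158 other known miRNAs listed in both tables with at least 50 reads in 1 library, those with the profile over the 4 libraries most like that of miR-375-3p were miR-200a-3p, miR-191-3p and miR-7a-5p. Likeness was the root mean square difference of log2 CPM after each miRNA was centred on its mean, and was 0.43, 0.51 and 0.60, beside a median of 2.54 over the 158. For miR-7a-5p the nearest were miR-191-3p (0.38), miR-200a-3p (0.43) and miR-411-5p (0.57). The likeness of miR-191-3p rests on few reads, with 70 in 3m-SI-Exos, 9 in 18m-SI-Exos, 19 in 3m-serum-exos and 28 in 18m-serum-exos. The profiles also span both sources, whose tables were made separately. miR-200a-3p, of the miR-200 family that maintains the epithelial state, was at 2893, 575, 78.1 and 103 CPM in 3m-SI-Exos, 18m-SI-Exos, 3m-serum-exos and 18m-serum-exos. For miR-802-5p the nearest were miR-203-3p (0.94), miR-379-5p (1.09) and miR-28a-3p (1.11). miR-203-3p and miR-28a-3p also had 0 reads in 18m-SI-Exos, so their likeness to miR-802-5p rests in part on the 0.5 counts added to each library. miR-7b-5p had no profile over 4 libraries.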

How the data were processed

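Small RNA libraries of exosomes from 4 groups, 1 library each, were analysed here, and the other groups that the study sequenced were not. For each source the authors deposited a table of miRNA read counts with RPM beside them. Bowtie2 2.2.9 and GRCm38 are named in the submitters' processing notes, without options. The labels name an MGI kit for the libraries, whereas the methods name a VAHTS kit. The RPM, per the file headers and the deposited values, are the counts over a library total, of which the miRNA reads were 1.14% (3m-SI-Exos), 0.411% (18m-SI-Exos), 5.89% (3m-serum-exos) and 5.31% (18m-serum-exos). Every listed miRNA has at least 1 read in its table. The authors' fold changes and their p- and q-values were not used.

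From the counts, CPM, their ratios with exact conditional binomial intervals, and proportions of reads within a library (exact binomial intervals, or an exact conditional odds ratio between ages) were computed for all miRNAs or the members, as stated. No test between groups was possible. The members and lists were chosen with earlier results of these data known. The miRNAs named are the 4 members, their partner arms, 5 comparison lists and the 3 nearest profiles. TMM factors came from edgeR 4.0.16 and size factors from DESeq2 1.42.0. The alternatives also included the authors' RPM, totals without the 5 most abundant miRNAs or of known miRNAs alone, other minimum reads and fold limits, and no interval rule. For ratios and calls of single miRNAs, the 5 most abundant were those of highest mean share over both ages of a source. For levels and summed shares they were the top 5 of each library. The median log2 ratio moved from its CPM value by 0.07 (TMM), 0.52 (DESeq2), 1.47 (RPM) and -0.15 (without the top 5) in SI-Exos. The shifts in the same order for serum exosomes were 0.19, 0.10, 0.15 and 0.39. Python 3.11.15, numpy 2.4.6, pandas 2.3.3, scipy 1.17.1, matplotlib 3.10.9 and R 4.3.3 were used, with gene positions from GENCODE M21 and RefSeq.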

Additional observations from a re-analysis of the deposited data

Results flagged for a closer look

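miR-375-3p was 2.94-fold higher at 3 months than at 18 months in SI-Exos (2.55 to 3.40) and had a ratio of 0.403 (0.340 to 0.475) in serum exosomes, so the same contrast of ages went in opposite directions in the 2 sources. The difference between the sources was not tested, since each arm is 1 library. miR-7a-1-3p, the 3p arm of the hairpin of Mir7-1, went in opposite directions as well, with a ratio of 24.2 in SI-Exos, on 72 reads and 1 read, and 0.262 in serum exosomes. This difference was not tested either.

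Of the comparison lists, miR-200b-3p and miR-429-3p, both of the epithelial miR-200 family, had the same opposite directions, again untested. Set against 3 reads, miR-200b-3p was 42.7-fold higher at 3 months in SI-Exos, with an exact lower limit of 34.6, and had a ratio of 0.374 in serum exosomes. miR-429-3p had ratios of 5.10 and 0.349. Opposite directions were not particular to these miRNAs. Outside the members and lists, log2 ratios in SI-Exos and serum exosomes were 1.02 and -2.45 for let-7g-5p, 3.81 and -1.19 for miR-93-5p, and 3.20 and -1.01 for miR-30c-5p. Others went the reverse way, such as miR-490-5p (-2.66 and 2.54) and miR-99b-5p (-1.19 and 1.33). The share of all measured miRNAs with opposite calls was not computed.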

How the results depend on the processing

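No paired analysis was possible because each group has 1 library, and for the same reason no library could be left out. Over 71 alternatives for the age ratios of the members, 65 kept their side of the calling rule and 6 lost the call. Other read minimums, fold limits and the interval rule leave a ratio as it is and can change only its call. Direction could turn only where the total changed or reads were added together, and there none did. With a 4-fold limit, miR-375-3p (2.94) and miR-7a-5p (3.45) lost their calls in SI-Exos, leaving 2 members higher at 3 months, and in serum exosomes miR-802-5p (3.14) and miR-375-3p (0.403) lost theirs, leaving 0 higher and 0 lower. In serum exosomes, totals without the 5 miRNAs of highest mean share over both ages took miR-375-3p to 0.528, leaving 0 lower. A minimum of 50 reads left out miR-802-5p (3.14) there, leaving 0 higher. Known miRNAs alone, TMM, DESeq2 and RPM changed no call of a member. Of the partner arms, miR-802-3p became called higher in SI-Exos with DESeq2 (1.92 against 3 reads), RPM (3.73) and no interval rule, and miR-7a-1-3p lost its call in serum exosomes at 4-fold.

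The levels depend on the total. For the summed share of the members, alternatives chosen after seeing the data gave ratios of 3 months to 18 months of 9.75 (RPM) and 3.18 (without each library's top 5) in SI-Exos, and of 0.944 and 1.03 in serum exosomes, where the direction turned. In RPM, miR-375-3p was at 101 (3m-SI-Exos), 12.4 (18m-SI-Exos), 14.4 (3m-serum-exos) and 32.4 (18m-serum-exos), miR-7a-5p at 164, 17.2, 53.4 and 42.1, miR-7b-5p at 16.8 in 3m-SI-Exos, and miR-802-5p at 5.91 in 3m-SI-Exos, 3.33 in 3m-serum-exos and 0.956 in 18m-serum-exos. In CPM after dropping each library's top 5 from its total, miR-375-3p was at 17221, 6476, 869 and 1793, miR-7a-5p at 27984, 8975, 3217 and 2334, miR-7b-5p at 2858 in 3m-SI-Exos, and miR-802-5p at 1008 in 3m-SI-Exos, 200.2 in 3m-serum-exos and 53.0 in 18m-serum-exos. By RPM, miR-375-3p and miR-7a-5p were thus lower in 18m-SI-Exos than in either serum library, unlike by CPM. Depth limits most the 18m-SI-Exos library, where 3 reads are 42.0 CPM.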
